A study of Mus musculus with 28 samples.

Results

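The Iroquois genes encode homeodomain transcription factors of the TALE class, which carry a short insertion in the homeodomain. Mammals have 6 of them in 2 clusters, and they pattern the neural plate, limbs and heart. *Irx4* is a marker of ventricular muscle, *Irx3* acts in the ventricular conduction system, and *Irx5* shapes the gradient of repolarization across the ventricular wall. Genes of this kind are held silent in early embryonic cells by Polycomb repressive complex 2 (PRC2), whose subunit Suz12 is needed for its activity and which places trimethylation on lysine 27 of histone H3 (H3K27me3). Acetylation of the same lysine (H3K27ac) marks active promoters and enhancers, so that 1 histone tail cannot carry both. Brg1 is an ATPase of the BAF chromatin remodelling complexes.

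All 6 genes of the family were examined among 22367 protein-coding gene entries of the mm9 annotation, and they were chosen by name, with earlier results of these data known. *Irx1*, *Irx2* and *Irx4* lie on chromosome 13 and *Irx3*, *Irx5* and *Irx6* on chromosome 8. The study asked what Brg1 does while mouse embryonic stem cells (ESCs) become mesoderm. Cells of the line Brg1f/f; Actin-CreER, in which both *Brg1* alleles are floxed and a tamoxifen-inducible Cre recombinase is expressed constitutively, were grown as embryoid bodies for 2 days and then induced with VEGF, Activin A and BMP4 for 40 h. From day 2 they received either 200 nM 4-hydroxytamoxifen (4-OHT) in tetrahydrofuran, which deletes *Brg1*, or tetrahydrofuran alone (THF, here called control), and chromatin was collected at day 4. ChIP-seq was made for H3K27me3 in 3 control and 3 4-OHT replicates, for Suz12 and H3K27ac in 2 and 2 each, and for FLAG-tagged Brg1 in 3 replicates with normal Brg1. The controls carry the floxed alleles and the Cre as well. The labels give the FLAG samples the same cell line, whereas the methods of the study describe ESCs with a tagged *Brg1* allele and duplicate FLAG samples where the labels hold 3. The samples are a culture of 1 line, not an embryo, and hold whatever cell types the induction gave.

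The authors called regions enriched over input in each replicate separately and deposited each list as positions alone, with no score or read count, so depth is unknown. The value used here is therefore the number of base pairs (bp) covered by listed regions, which follows the width of the regions and not their height. H3K27me3 lists covered 8.38, 11.01 and 10.03 Mb in control replicates 1, 2 and 3 and 4.74, 8.99 and 7.62 Mb in the 4-OHT replicates, so that every 4-OHT list was the shorter of its same-numbered pair. Both H3K27me3 replicate 1 lists hold many narrow regions, with a median width of 250 bp against 350 to 425 bp in the others. The Suz12 lists covered 3.58 to 4.77 Mb, the H3K27ac lists 26.1 to 30.8 Mb, and the FLAG lists held 8021, 8257 and 192 regions. Of 6 mesoderm genes, 5 had H3K27ac at the promoter in both control replicates, with *Kdr* at 0, as had 2 of 3 pluripotency genes and 1 of 3 endoderm genes, and neither of 2 neural genes. The summed H3K27ac length over the mesoderm genes was 19190 and 27264 bp in control cultures and 13264 and 20089 bp after 4-OHT. A change in the share of cell types in the culture and a change within each cell cannot be told apart in such samples.

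*Irx1* (chr13:72095680-72101171, minus strand), *Irx2* (chr13:72766245-72771644, plus) and *Irx4* (chr13:73397945-73407068, plus) stand 665 and 632 kb apart, measured between transcriptional start sites (TSSs). *Irx3* (chr8:94322428-94325553, minus), *Irx5* (chr8:94881695-94885351, plus) and *Irx6* (chr8:95198188-95204855, plus) are 556 and 316 kb apart. With 5 kb added at each end the clusters span 1321389 and 892428 bp. The transcript *4933436C20Rik* starts about 1.7 kb from the *Irx5* TSS in the opposite direction, and the *Irx3* promoter lies inside *D230002A01Rik* on the other strand, so that regions there cannot be given to 1 gene alone.

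PRC2 in mammals gathers at CpG-rich promoters, so the 250 bp directly before 3 of the TSSs are shown, those of *Irx1*, *Irx3* and *Irx6*. *Irx1* has the most CpG dinucleotides in the family. Within 5 kb of the TSS, *Irx3* had the longest Suz12 coverage in control cultures and *Irx6* the shortest. The sequences were read from the mm9 genome, run 5′ to 3′ in the direction of transcription, and carry each CpG in capitals. The positions are chr13:72101172-72101421 (minus strand), chr8:94325554-94325803 (minus) and chr8:95197938-95198187 (plus).
Irx1: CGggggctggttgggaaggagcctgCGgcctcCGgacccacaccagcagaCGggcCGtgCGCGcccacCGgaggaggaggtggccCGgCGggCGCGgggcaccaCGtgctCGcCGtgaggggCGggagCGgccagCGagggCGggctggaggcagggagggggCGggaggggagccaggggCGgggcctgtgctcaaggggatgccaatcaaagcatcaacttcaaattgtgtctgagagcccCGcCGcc
Irx3: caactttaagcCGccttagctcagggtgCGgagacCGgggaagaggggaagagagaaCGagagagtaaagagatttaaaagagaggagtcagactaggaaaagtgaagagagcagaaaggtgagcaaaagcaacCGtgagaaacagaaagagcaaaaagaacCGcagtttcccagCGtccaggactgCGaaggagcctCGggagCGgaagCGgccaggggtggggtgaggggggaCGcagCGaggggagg
Irx6: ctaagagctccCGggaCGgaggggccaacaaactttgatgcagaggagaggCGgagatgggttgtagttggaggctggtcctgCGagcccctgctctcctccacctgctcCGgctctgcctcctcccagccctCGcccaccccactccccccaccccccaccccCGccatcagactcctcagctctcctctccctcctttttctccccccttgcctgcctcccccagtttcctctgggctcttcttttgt

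The *Irx1* sequence holds 23 CpGs, which 15.2% of 22362 promoters of this length equal or exceed, and 74% of its bases are G or C. The *Irx3* sequence holds 13 (38.3% of promoters have as many) and the *Irx6* sequence holds 7 (55.8%), beside a median of 8 over all promoters. *Irx2*, *Irx4* and *Irx5* hold 21, 22 and 21. The median was 16 in the 1350 genes with Suz12 in both control replicates and 8 in the other 21012. It was 15 in the 1343 genes with H3K27me3 in all 3 control replicates but no Suz12 in both. *Irx6* was thus the only Iroquois promoter below the median of all promoters. *Irx3*, with fewer CpGs than the remaining 4, had more Suz12 than they had within 5 kb of the TSS. This did not hold within 20 kb. There *Irx3* had 7800 and 8575 bp in the control replicates, less than *Irx5* (10375 and 10250) and *Irx2* (9000 and 10150) but more than *Irx1* and *Irx4*.

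In control cultures H3K27me3 lay at all 6 promoters in every replicate. Within 5 kb on each side of the TSS, the mean covered length was 6636 ± 2707 bp at *Irx2*, 6633 ± 2629 at *Irx3*, 6352 ± 1468 at *Irx1*, 5755 ± 1263 at *Irx6*, 5555 ± 2043 at *Irx4* and 4812 ± 2006 at *Irx5* (SD, n = 3). No 2 neighbours in this order differed by more than their spread, which came mostly from replicate 1. The 6 genes ranked between 208 and 377 of all genes by this length, at or above at least 91.1% of the 4204 genes with any H3K27me3 in the window.

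Suz12 was present at all 6 promoters too, and here the family divided. *Irx3* had 7190 ± 548 bp, *Irx5* 6258 ± 124, *Irx2* 5794 ± 194, *Irx1* 5142 ± 124 and *Irx4* 3745 ± 778 (SD, n = 2 for each), whereas *Irx6* had 925 ± 141 bp. The *Irx6* replicates, 1025 and 825 bp, lay below both replicates of every other member. The H3K27me3 domain of *Irx6* nevertheless ran in control replicates 2 and 3 from shortly before the TSS to 5.41 and 5.36 kb after it. Its Suz12 region ended 1.01 kb and 0.74 kb after the TSS. Within 20 kb of the TSS, *Irx6* also had the shortest H3K27me3 coverage of the family in each control replicate. It had 4950, 6125 and 7400 bp there, and *Irx1*, the next, had 6025, 9400 and 8750 bp. Of the *Irx6* bases with H3K27me3 in at least 2 control replicates, 10.8% lay in Suz12 of both, compared with 45.7% at *Irx4*, 62.3% at *Irx2*, 69.9% at *Irx1*, 81.3% at *Irx3* and 96.6% at *Irx5*.

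**Figure D1:**
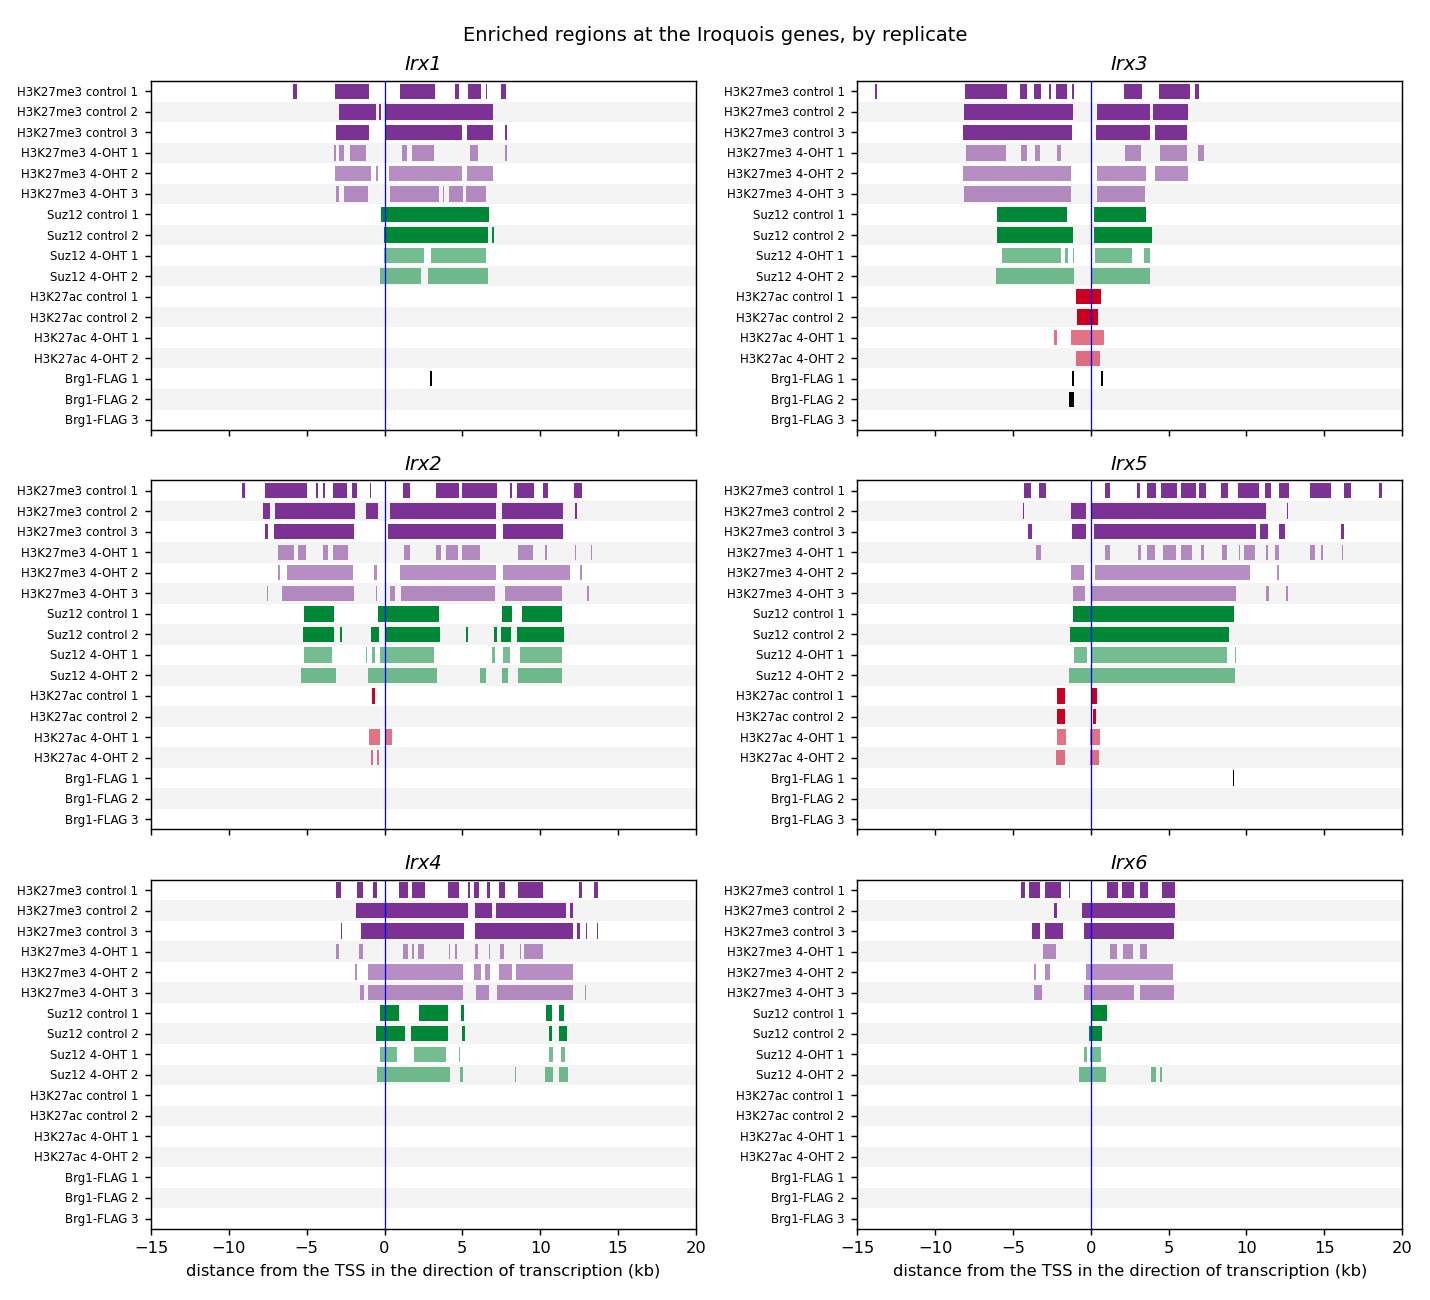
Enriched regions in each replicate at the 6 genes, drawn as bars against the distance from the TSS in kb, positive in the direction of transcription; H3K27me3 is purple, Suz12 green, H3K27ac red and Brg1-FLAG black, and 4-OHT replicates are in the paler tone. The narrow Suz12 region of *Irx6* under a wider H3K27me3 domain, the H3K27ac regions that fill the gap at the *Irx3* TSS, and the broken regions of both H3K27me3 replicate 1 lists can be seen.

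The start site itself was often free of H3K27me3. At *Irx1*, *Irx2*, *Irx3* and *Irx5* no control list covered the TSS base, and at *Irx4* and *Irx6* replicates 2 and 3 did. Among 1684 genes with at least 1000 bp of H3K27me3 on average, 46.3% had a TSS in no control list beside the 4 of 6 here. What filled the gap differed between members. At *Irx3* the H3K27me3 regions of control replicate 2 stopped 1148 bp before the TSS and resumed 403 bp after it, Suz12 also stopped short of the TSS on both sides, and H3K27ac covered the TSS in all 4 of its lists. At *Irx1* Suz12 covered the TSS in all 4 lists and no H3K27ac was listed in the window.

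After 4-OHT the H3K27me3 windows were shorter on average at all 6 genes, but in no gene did the groups separate. *Irx1* covered 4675, 7405 and 6975 bp in control replicates 1, 2 and 3 and 3125, 7125 and 5755 bp after 4-OHT (ratio of means 0.840, two-sided exact permutation p = 0.6). The *Irx2* lengths were 3531, 8501 and 7876 bp in control cultures and 2820, 7176 and 7326 bp after 4-OHT (ratio 0.870, exact permutation p = 0.5). In both genes the 4-OHT replicates 2 and 3 were longer than control replicate 1, so the groups overlapped.

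*Irx4* had 3200, 6845 and 6620 bp in control cultures and 1575, 6220 and 6345 bp after 4-OHT (ratio 0.848, exact permutation p = 0.5). For *Irx3* the control lengths were 3598, 8201 and 8101 bp and those after 4-OHT 2473, 7776 and 6778 bp (ratio 0.856, p = 0.5 by the same permutation test). *Irx5* gave 2495, 5970 and 5970 bp against 1670, 5570 and 5695 bp (ratio 0.896, p = 0.5 by permutation). Again replicate 1 was the shortest of each group, and replicate differences exceeded the difference between conditions.

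*Irx6* covered 4513, 5713 and 7038 bp in control cultures and 2400, 5763 and 5563 bp after 4-OHT (ratio 0.795, exact permutation p = 0.5). It had the lowest ratio of the family, yet pair 2 was 50 bp longer after 4-OHT. In all, 0 of 6 members had groups that did not overlap, where 12% of 4204 covered genes were lower in this sense and 0.19% higher. The smallest p that 3 against 3 replicates allow is 0.1.

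Same-numbered H3K27me3 replicates deviated together, so the pairs were compared as well, although replicates 2 and 3 were alike and only replicate 1 stood well apart. Every 4-OHT replicate was below its control partner at 5 of 6 genes, *Irx6* being the exception, where 44.1% of all covered genes and 71.4% of the 1684 more widely covered genes showed this, and at 0 of 6 was every pair higher (0.809%). With 3 pairs the smallest two-sided sign-flip p is 0.25. When both replicate 1 lists were left out, a choice made after the values were seen, *Irx2*, *Irx3*, *Irx4* and *Irx5* had groups that did not overlap, all lower after 4-OHT, where 43.5% of 3478 genes were, and 5 of 6 were lower in both remaining pairs (59.2%). A lower value in every pair was thus frequent among widely covered genes, and the members' count lies near that share.

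**Figure D2:**
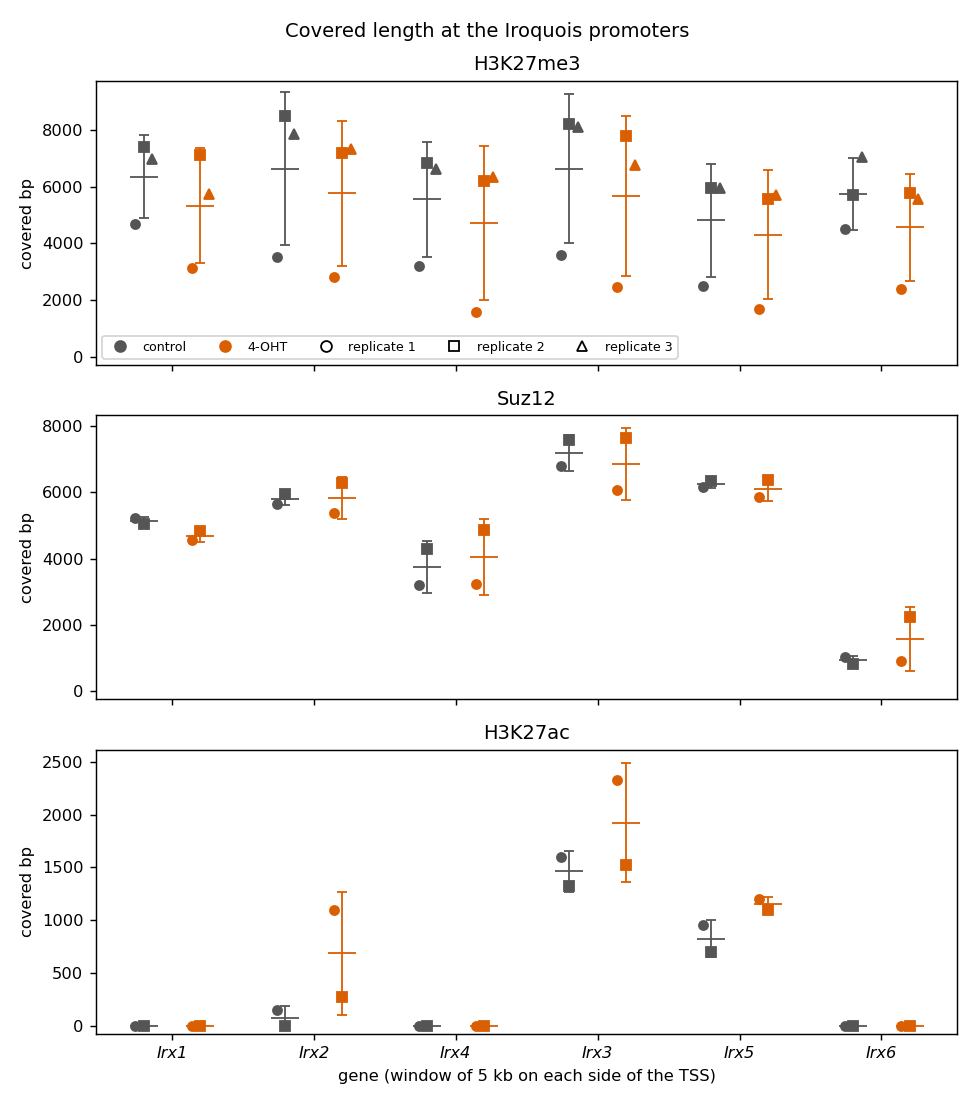
Covered bp in the window around the TSS (vertical axis) for each gene and mark, with 1 point per replicate, control in grey and 4-OHT in orange, and means with SD as horizontal ticks with bars. H3K27me3 groups overlap at all 6 genes with both replicate 1 points lowest; *Irx1* Suz12 lies lower after 4-OHT and *Irx2* and *Irx5* H3K27ac higher.

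The direction depended on whether the length of the whole list was taken into account. Summed over the 6 windows, H3K27me3 covered 22012, 42635 and 42580 bp in control cultures and 14063, 39630 and 37462 bp after 4-OHT, a ratio of 0.850, while the whole lists had a ratio of 0.726. Expressed per Mb of the list, the sums were 2625, 3873 and 4244 bp in control cultures and 2968, 4408 and 4914 bp after 4-OHT, higher in each of the 3 pairs. On that scale 4 of 6 genes were higher in every pair, *Irx1*, *Irx2*, *Irx3* and *Irx5*, and 0 were lower in every pair. Of all covered genes, many of them thinly covered, 14.6% were higher and 16.3% lower in this way. The share among the more widely covered genes was not computed on that scale, so the members' count cannot be set against genes like them. No member had groups that did not overlap on that scale, where 5.8% of genes were lower and 4.92% higher. On the log2 scale the median ratio in pairs 1, 2 and 3, over the 1605, 1681 and 1645 widely covered genes with the mark in both lists of the pair, moved from -0.66, -0.20 and -0.28 as listed to 0.16, 0.09 and 0.12 per covered bp. Of the 18 values of the members, 1 was above 0 as listed and 16 were above 0 after scaling. All genes of a pair share the same scaling factor. The share of values above 0 among the widely covered genes was not computed, though their median was above 0 in each pair after scaling. The lists hold no read counts, so whether the shorter lists reflect less H3K27me3 or less sequencing was not tested.

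**Figure D3:**
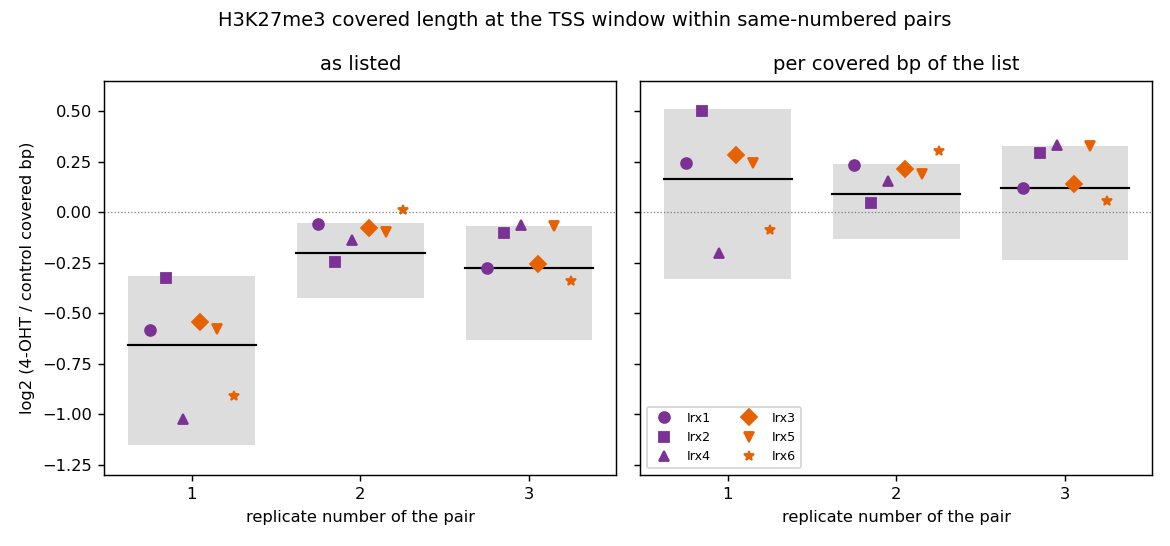
Log2 ratio of H3K27me3 covered bp, 4-OHT over control, within each same-numbered pair (horizontal axis) as listed and after division by the covered length of the list; symbols are the 6 genes, and the grey boxes and black lines are the quartiles and median of genes with at least 1000 bp covered. Most symbols are below 0 in the left plot and above 0 in the right one, and the median of the genes with at least 1000 bp moves in the same direction.

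Within the windows the difference, as listed, varied from stretch to stretch. The 5 kb before the *Irx5* TSS, which also hold the start of *4933436C20Rik*, covered 925, 1025 and 1150 bp in control cultures and 325, 850 and 800 bp after 4-OHT, and all 4-OHT values lay below all control values (exact permutation p = 0.1, the smallest possible). It was 1 of 6 upstream stretches to do so, where 13.3% of 3072 genes did, so the count lies near that share. The upstream stretches were not scaled by list length, so whether this separation holds on that scale was not tested. The gene bodies gave 0 of 6 (10.9% of 3839 genes). *Irx3*, a short gene, covered 973, 2723 and 2773 bp of its 3126-bp body in control and 923, 2698 and 2698 bp after 4-OHT, a difference of at most 75 bp in a pair.

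Across the chromosome 13 cluster H3K27me3 covered 22800, 39600 and 38375 bp in control cultures and 13925, 35600 and 33975 bp after 4-OHT (ratio 0.829, exact permutation p = 0.5). The chromosome 8 cluster covered 30900, 35925 and 36975 bp in control cultures and 16275, 33450 and 30550 bp after 4-OHT (ratio 0.773, exact permutation p = 0.2). Both clusters were shorter in all 3 pairs, and in both the groups overlapped. Scaled by list length, both differences turned round, to 3422 and 1489 bp more after 4-OHT. Replicate 1 decided the size on chromosome 13, where the difference of -5758 bp became -11154 bp without control replicate 1 and 1196 bp without 4-OHT replicate 1. On chromosome 8 the groups separated without control replicate 1 (-9692 bp) or without 4-OHT replicate 2 (-11188 bp). Between 34.3% and 57.1% of the control H3K27me3 length of the chromosome 8 cluster, and 50.0% to 57.5% of that of chromosome 13, fell in the 3 promoter windows.

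Suz12 differed little at the promoters. *Irx1* had 5230 and 5055 bp in control cultures and 4555 and 4830 bp after 4-OHT, a ratio of 0.912 with groups that did not overlap (its exact permutation p is the smallest that 2 against 2 replicates allow, 1 in 3). *Irx2* covered 5656 and 5931 bp in control cultures and 5381 and 6281 bp after 4-OHT. *Irx3*, with 6803 and 7578 against 6078 and 7628 bp, and *Irx5*, with 6170 and 6345 against 5845 and 6370 bp, also overlapped. *Irx1* was the 1 of 6 that was lower, beside 5.76% of 2290 covered genes and 12.4% of the 781 with at least 1000 bp on average, and 0 of 6 were higher, beside 32.1% and 20.1%. These counts rested on single libraries, since 4 genes were lower without 4-OHT replicate 2 and 5 were higher without 4-OHT replicate 1.

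At *Irx4* the Suz12 lengths were 3195 and 4295 bp in control cultures and 3225 and 4845 bp after 4-OHT. At *Irx6* they were 1025 and 825 bp in control cultures and 900 and 2250 bp after 4-OHT, where the long value came from replicate 2 alone. In the 5 kb before the *Irx6* TSS, Suz12 covered 12 and 87 bp in control cultures against 212 and 787 bp after 4-OHT, the 1 of 6 members that was higher there beside 23.6% of 1435 genes. Summed over the 6 windows Suz12 covered 28079 and 30029 bp in control cultures and 25984 and 32204 bp after 4-OHT, a ratio of 1.00. Per Mb of the list the sums were 7622 and 7370 bp against 7266 and 6758 bp, lower without overlap (ratio 0.935). On that scale 4 of 6 genes were lower in both pairs, where 20.3% of all covered genes were, with no share computed for the more widely covered ones. The 1 gene without overlap was *Irx3* (13.3%, with 30.7% higher) and no longer *Irx1*. The clusters gave ratios of 0.989 on chromosome 13 and 1.01 on chromosome 8 with overlapping groups.

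The shorter Suz12 coverage of *Irx1* included a gap inside the gene. Control replicates 1 and 2 each listed 1 unbroken Suz12 region over the gene, from the TSS to 6.70 and 6.62 kb beyond it. After 4-OHT both replicates listed it in 2 parts, with a gap from 2.52 to 3.00 kb in replicate 1 and from 2.37 to 2.82 kb in replicate 2. The only Brg1-FLAG region at *Irx1*, seen in FLAG replicate 1 alone, lay 2.90 to 3.07 kb after the TSS. That is at the edge of the gap in 4-OHT replicate 1 but outside the gap, within Suz12, in 4-OHT replicate 2. The number of Suz12 regions in the whole list also went up, from 2951 and 2913 in control to 3654 and 4016 after 4-OHT. The gene body of *Irx2* was likewise lower, with 3481 and 3625 bp against 3206 and 3356 bp, so that 2 of 6 gene bodies were lower (5.48% of 2337 genes). Scaled by list length, the groups of both gene bodies overlapped, and that of *Irx3* was lower without overlap.

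H3K27me3 that lay inside Suz12 was kept more often than that outside it. Bases were taken within 20 kb of the 6 TSSs, and Suz12 was that of both control replicates. Inside, 72.7%, 95.7% and 94.8% of the control bases of replicates 1, 2 and 3 were still listed in the 4-OHT replicate of the same number (87.7% ± 13.0, SD, n = 3). Outside, 53.5%, 82.0% and 72.1% were (69.2% ± 14.5). The difference of 18.5 ± 4.53 percentage points was positive in each of 3 pairs, for which the smallest two-sided sign-flip p is 0.25.

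The rest of the genome kept 86.9% ± 11.7 inside and 58.6% ± 10.5 outside, so the family shared this difference with other loci. The contrast at *Irx5* was wide. Its H3K27me3 outside Suz12 was kept at 29.5%, 55.8% and 18.03%, and inside at 77.1%, 96.6% and 99.5%. The main *Irx5* domain, joining regions less than 1 kb apart, reached 12.7, 11.3 and 12.5 kb beyond the TSS in the control replicates and 7.31, 10.3 and 9.33 kb after 4-OHT. These ends follow the joining rule, since every control and 4-OHT replicate listed further H3K27me3 regions past a wider gap. In 4-OHT replicate 1 these lay from 8.43 to 16.23 kb, and in control replicate 1 from 14.08 to 18.7 kb. The Suz12 region of *Irx5* ended between 8.91 and 9.31 kb in all 4 Suz12 lists. At *Irx3* pair 1 went the other way, with 71.2% kept inside and 84.1% outside.

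**Figure D4:**
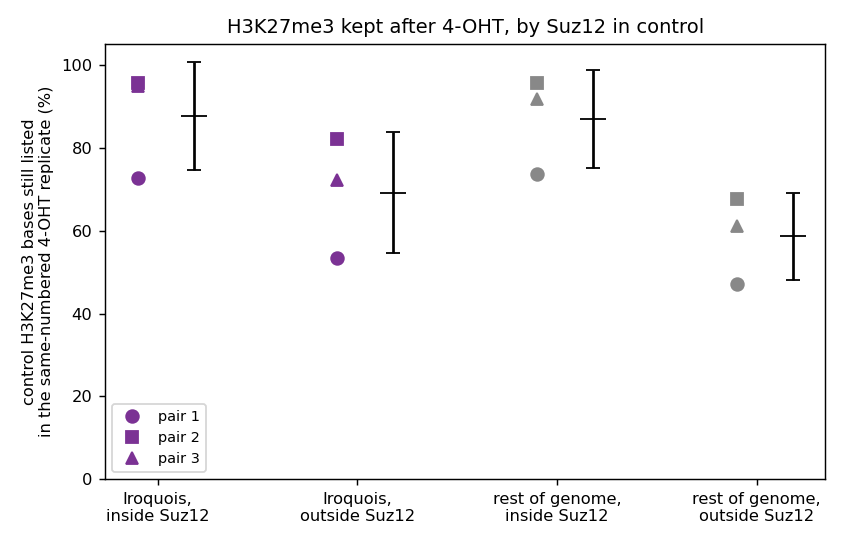
Share of control H3K27me3 bases (vertical axis, percent) still listed in the same-numbered 4-OHT replicate, inside and outside Suz12 of both control replicates, for the 6 genes (purple) and the rest of the genome (grey), with each pair as a symbol and mean with SD as black bars. In each of the 3 pairs the share inside is above the share outside in both sets.

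H3K27ac was absent at 3 of 6 genes and longer on average after 4-OHT at the rest. *Irx1*, *Irx4* and *Irx6* had 0 bp in all 4 lists. *Irx3* had 1600 and 1325 bp in control cultures and 2325 and 1525 bp after 4-OHT, which overlap (ratio 1.32, exact permutation p = 0.667). *Irx5* had 950 and 700 bp in control cultures and 1200 and 1100 bp after 4-OHT (ratio 1.39, the smallest exact p possible). *Irx2* had 150 and 0 bp in control cultures and 1100 and 275 bp after 4-OHT. Among the promoters with any H3K27ac, it was the one nearly free of the mark in control cultures.

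For *Irx5* and *Irx2* the groups did not overlap, 2 of the 3 members with any H3K27ac, where 39.8% of 12031 covered genes were higher and 12.6% lower. Part of the *Irx5* value lay at the start of the neighbouring transcript, which held 500 and 500 bp in control cultures and 575 and 575 bp after 4-OHT. The element at the *Irx5* TSS itself covered 425 and 200 bp in control cultures and 625 and 525 bp after 4-OHT. At the *Irx2* TSS an element at chr13:72766326-72766700 was listed with 375 and 25 bp after 4-OHT and in neither control replicate. All 3 genes were higher in both same-numbered pairs (52% of covered genes), and per Mb of the list all 3 had groups that did not overlap (51.3%). As listed, mean H3K27me3 was lower at the same promoters, whereas scaled by list length it was higher at all 3 in every pair. Whether the H3K27ac and H3K27me3 differences are in the same cells was not tested.

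Between the genes H3K27ac was unevenly spread. Across the chromosome 8 cluster it covered 8050 and 8875 bp in control cultures and 7750 and 6925 bp after 4-OHT, lower without overlap (ratio 0.867). The difference of -1125 bp became -712 bp without control replicate 2 or without 4-OHT replicate 2, -554 bp scaled by list length and -2638 bp with 100 kb added at each end, in each case without overlap. The chromosome 13 cluster, though longer, had 350 and 475 bp in control cultures and 1300 and 275 bp after 4-OHT. Elements more than 2.5 kb from any annotated TSS and listed in both control replicates numbered 8, of which 7 were on chromosome 8. Of these 8, 4 were listed in neither 4-OHT replicate, where 33.9% of 13559 such elements of the genome were missing. Without control replicate 1 the count was 8 of 12. That setting also takes elements listed in control replicate 2 alone, and no genome share was computed for it, so 33.9% is not its counterpart.

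The missing elements described here were narrow. On chromosome 13 it was chr13:72357926-72358275, 257 kb from *Irx1*, with 200 and 350 bp in control. On chromosome 8 the element chr8:94391276-94391650, 65.9 kb upstream of *Irx3*, had 150 and 375 bp in control, and chr8:94590676-94590900 had 25 and 225 bp. Another element, chr8:94740426-94741100, went from 500 and 650 bp to 0 and 25 bp. The element chr8:94681801-94682125 had 275 and 275 bp in control cultures and was listed in 1 of the 4-OHT replicates, with 100 bp. The 2 elements listed in both 4-OHT replicates were wider than these.

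The element chr8:94594676-94596900, 270 kb upstream of *Irx3*, covered 2000 and 2225 bp in control cultures and 1400 and 1950 bp after 4-OHT. The element chr8:94656951-94659375, 224 kb upstream of *Irx5*, covered 2050 and 2175 bp in control cultures and 2150 and 2200 bp after 4-OHT. The first was lower after 4-OHT without overlap and the second overlapped. In the other direction, chr8:95156926-95157475, 41.0 kb before *Irx6*, had 500 and 125 bp after 4-OHT and 0 in control, although no H3K27ac was listed at the *Irx6* promoter.

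Brg1-FLAG was scarce at the promoters and frequent between *Irx3* and *Irx5*. In the promoter windows it covered 300, 325 and 0 bp at *Irx3* in replicates 1, 2 and 3, 175, 0 and 0 bp at *Irx1*, and 0 bp at the other 4 genes in all 3 replicates. At *Irx3* it began 1048 and 1073 bp before the TSS in replicates 1 and 2, outside the H3K27ac regions of both control replicates and touching H3K27me3 of all 3 control replicates, and replicate 1 listed a further 150 bp inside the gene. The chromosome 8 cluster held 2125, 4600 and 25 bp in all, which is 2381, 5154 and 28.0 bp per Mb beside 407, 505 and 9.41 in the whole genome. The chromosome 13 cluster held 473, 1059 and 0 bp per Mb. The third FLAG list, with 192 regions, can show few sites, so its zeros are limited by that list.

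**Figure D5:**
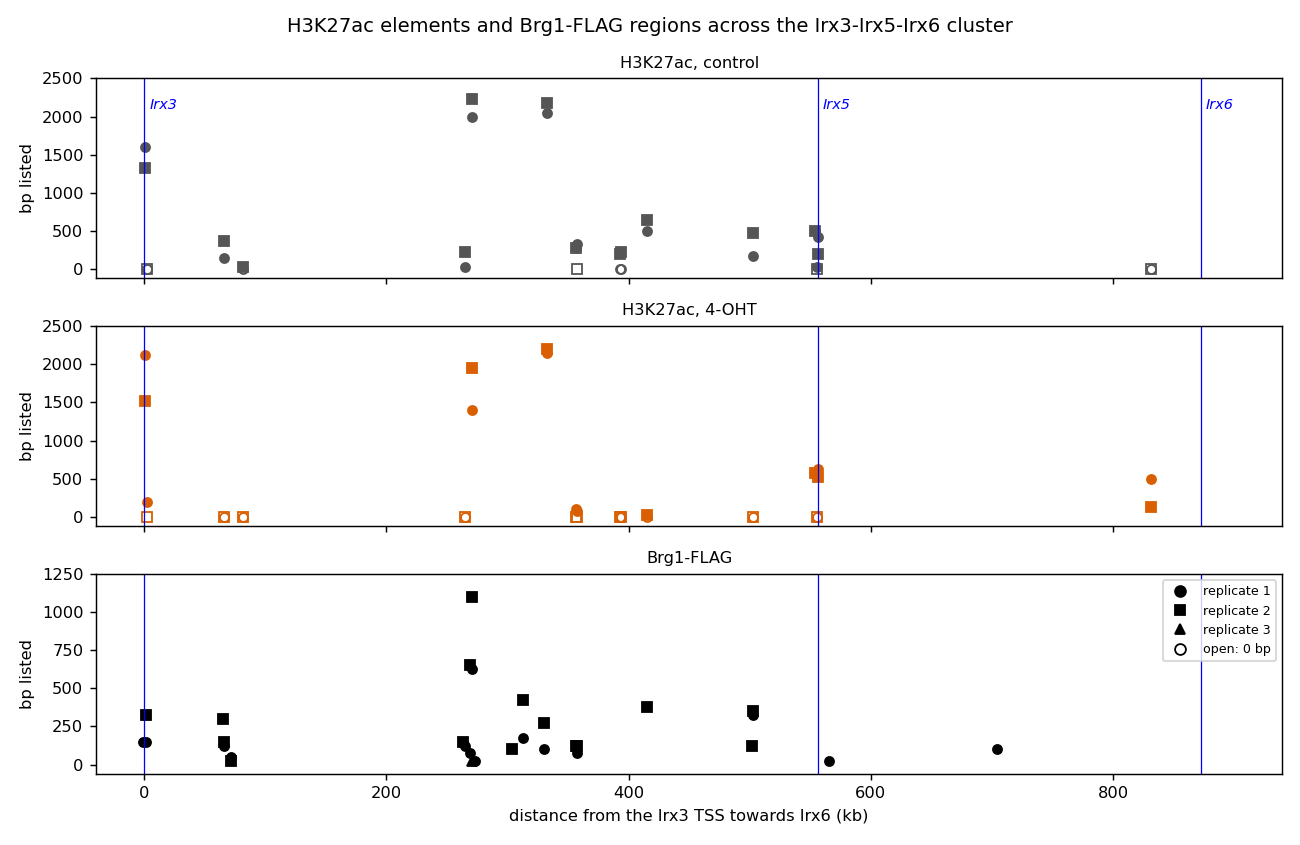
Width in bp (vertical axis) of H3K27ac elements in control and 4-OHT cultures and of Brg1-FLAG regions across the *Irx3*-*Irx5*-*Irx6* cluster, against the distance from the *Irx3* TSS in kb; each symbol is 1 replicate, open symbols are 0 bp, and blue lines are the TSSs. The wide elements at 270 and 333 kb stay after 4-OHT, those at 65.9 and 265 kb are at 0 in both 4-OHT replicates, and FLAG regions lie mostly before *Irx5*.

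Of the 8 distal elements, 3 had FLAG regions in at least 2 replicates, all on chromosome 8. Of these, 2 were missing after 4-OHT, among them the one 65.9 kb from *Irx3*, and the one at 270 kb was narrower. The element at 270 kb held the only site of either cluster seen in all 3 FLAG lists, with 625, 1100 and 25 bp. Together with a separate region listed in replicate 2 alone, FLAG covered 625, 1525 and 25 bp of this element. The element at 224 kb from *Irx5* had no FLAG in any list. For the 5 elements with FLAG in fewer than 2 replicates, 2 were missing. In the genome 25.5% of 1344 elements with FLAG in at least 2 replicates and 34.9% of 12215 others were missing. With 3 and 5 elements the clusters are too few for a comparison of these shares.

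The mm9 sequences of 300 bp at 2 of these sites are printed to show the DNA under Brg1-FLAG in an element that was missing after 4-OHT and in the one that stayed. They are given 5′ to 3′ on the plus strand, and capitals mark the bases listed in both FLAG replicates 1 and 2. The positions are chr8:94391326-94391625 at 65.9 kb (missing) and chr8:94595738-94596037 at 270 kb (kept).
Element at 65.9 kb: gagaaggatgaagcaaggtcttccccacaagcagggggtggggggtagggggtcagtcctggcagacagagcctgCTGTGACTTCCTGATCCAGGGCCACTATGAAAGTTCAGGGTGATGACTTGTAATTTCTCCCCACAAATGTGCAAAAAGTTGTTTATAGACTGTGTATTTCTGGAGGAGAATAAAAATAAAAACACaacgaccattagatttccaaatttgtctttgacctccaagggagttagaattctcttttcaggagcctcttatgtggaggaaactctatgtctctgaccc
Element at 270 kb: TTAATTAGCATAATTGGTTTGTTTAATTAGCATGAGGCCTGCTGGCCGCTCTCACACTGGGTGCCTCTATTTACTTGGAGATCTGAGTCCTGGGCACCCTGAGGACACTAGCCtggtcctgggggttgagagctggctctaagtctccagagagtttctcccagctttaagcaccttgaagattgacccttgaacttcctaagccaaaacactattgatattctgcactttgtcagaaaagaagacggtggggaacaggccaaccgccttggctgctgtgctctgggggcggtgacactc

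FLAG replicates 1 and 2 shared 125 and 113 bp of these windows, and 45.7% and 50.7% of the bases were G or C. Letters of motifs of mesodermal factors were searched on both strands in the 10 distal sites of the clusters seen in at least 2 FLAG replicates. The T-box letters GGTGTGA were in 1 of 10 windows, beside 6.08% of 1810 such windows of the genome, in the site at chr13:72483113-72483412. The GATA letters AGATAAG and the forkhead letters TGTTTAC were in 0 of 10, beside 6.41% and 5.64%. The 2 windows printed above hold none of these letters.

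One Polycomb domain of the chromosome 8 cluster lay far from any gene start. At chr8:94983876-94985225, 103 kb beyond the *Irx5* TSS, Suz12 covered 1325 and 1325 bp in control cultures and 1375 and 1425 bp after 4-OHT. H3K27me3 within 5 kb of it covered 4675, 4700 and 4375 bp in control cultures and 2100, 4225 and 4350 bp after 4-OHT. As listed it was lower in each pair, though only slightly in pair 3, and it was not scaled by list length. H3K27ac there was 0 bp in all 4 lists. In control cultures the domain thus had more Suz12 than the *Irx6* promoter without being a promoter in the annotation used.

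The genes around the clusters mostly lacked the marks of the family. Of 10 protein-coding neighbours within 500 kb of the chromosome 13 cluster, H3K27me3 was listed in all control replicates at 1, *Slc6a3*, a dopamine transporter gene, and of 13 near the chromosome 8 cluster at 3. *Slc6a3* covered 1300, 1150 and 1275 bp in control cultures and 175, 225 and 150 bp after 4-OHT. *Slc6a2*, a noradrenaline transporter gene beyond *Irx6*, covered 5800, 4775 and 5000 bp in control cultures and 3650, 4300 and 3925 bp after 4-OHT. In both transporter genes the groups did not overlap, where 12% of all covered genes were lower. They overlapped at the other marked neighbours, *4933436C20Rik* and *Lpcat2*, the latter with 950, 1050 and 825 bp in control cultures and 675, 825 and 1325 bp after 4-OHT. *Fto*, whose introns are known to hold enhancers of *Irx3*, had no H3K27me3 and had 275 and 275 bp of H3K27ac in control and 350 and 375 bp after 4-OHT at its promoter. The window of *Rpgrip1l*, which starts close by on the other strand, held the same lengths, so this H3K27ac cannot be given to *Fto* alone.

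The median ratio of H3K27me3 length, 4-OHT to control, was 0.852 over the 6 Iroquois genes, 0.865 over 6 *Dlx* genes and 0.901 over 14 *Nkx* genes, beside 0.577 over all 4204 genes, many of them thinly covered. No gene of these families had groups that did not overlap. For Suz12 the medians were 0.991, 0.967 and 0.972 in the same order, and 1.12 over all genes. Among the other TALE genes H3K27me3 was widest at *Meis1*, with 2750, 4815 and 5465 bp in control cultures and 2575, 3615 and 4351 bp after 4-OHT, and next at *Mkx*, with 2000, 4200 and 3700 bp against 1800, 4100 and 2875 bp.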

How the data were processed

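ChIP-seq region lists of 17 samples were used, and the 11 inputs were used only by the authors in calling. The authors aligned reads with Bowtie to mm9, per the processing notes, called regions over input with a Poissonian model in each replicate, at a threshold of 1e-06 and a 2-fold cutoff for FLAG and 1e-12 for the other lists, and deposited chromosome, start and end only. These positions carry no score. All edges are multiples of 25 bp. Read depth is not given, so no interval for counting error can be given.

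Covered bp were counted in windows of 5 kb on each side of the TSS, gene bodies and clusters of the GENCODE vM1 annotation of mm9 (Python 3.11.15, NumPy 2.4.6, SciPy 1.17.1, Matplotlib 3.10.9). A gene was called lower or higher where the 4-OHT values all lay below or above every control value, and means were compared by two-sided exact permutation tests. Where labels do not say that replicates came from separate cultures, p-values measure the spread between these samples only. Shares of all protein-coding genes with any covered bp of the mark are given beside each count. The lower and higher calls were made over all such genes, and the permutation tests only for the 6 genes, their summed windows and the clusters. Correlations of deviations from condition means between same-numbered replicates were 0.932, 0.875 and 0.796 for H3K27me3 (0.692 and 0.760 between replicates 2 and 3 of different number), so those numbers were taken to pair the samples, from the lists alone, and 0.444 for Suz12 and 0.418 for H3K27ac with 2 pairs only. Named genes are the 6 members, neighbours within 500 kb, and the most covered genes of the homeobox lists. Some results are not reported here. Members and lists were chosen with earlier results of these data known. On simulated lists, the length matched a direct count of bases in 200 of 200 windows, 200 of 200 shortened windows were called lower, and 12 of 300 unchanged ones were. The simulated windows varied less between lists, and were shortened by more, than the H3K27me3 windows of the 6 genes. These counts therefore check the code and do not give the power of the rule in these data.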

Additional observations from a re-analysis of the deposited data

How the results depend on the processing

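Groups of 2 or 3 replicates and lists without read counts limit all values. Scaled by list length, the H3K27me3 difference (4-OHT minus control) became 3422 bp on chromosome 13 and 1489 bp on chromosome 8, both reversed, and the Suz12 difference became -1628 bp on chromosome 13, then without overlap, and -1308 bp on chromosome 8, reversed. With the replicate block, pairs in place of groups, 5 H3K27me3 promoters were lower in place of 0, and the cluster differences of -5758 and -7842 bp were lower in every pair. For Suz12, where replicates share only a number, 1 promoter was then higher (*Irx4*). In windows of 2.5 kb on each side Suz12 was lower at 0 promoters and higher at 1 (*Irx2*).

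Leaving out 1 replicate at a time, the H3K27me3 promoters called lower ranged from 0 to 4 (4 without control replicate 1). Without both replicate 1 lists, chosen after seeing the data, they were 4 too. The cluster differences ranged from -11154 to 1196 bp on chromosome 13, reversed only without 4-OHT replicate 1, and from -11188 to -2600 bp on chromosome 8. The Suz12 promoters called lower ranged from 1 to 4 and higher from 0 to 5. Suz12 cluster differences ranged from -2312 to 1838 bp on chromosome 13 and from -2000 to 2250 bp on chromosome 8. H3K27ac on chromosome 13 ranged from -138 to 888 bp. The distal elements missing after 4-OHT ranged from 4 to 8, with 8 of 12 without control replicate 1, a setting without a computed genome share. Windows of 10 kb, all annotated starts and the widest regions alone moved no other summary across its threshold, and the difference in H3K27me3 kept inside and outside Suz12 stayed positive in each alternative. The alternatives for that difference and for the distal elements were also chosen after seeing the data. The cause of the changes was not tested.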
